A study of Mus musculus with 2 samples.

Results

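Vcan/Chil3-positive monocytes were gated from the leukocytes of B16-F10 tumours by raw UMI counts per cell, where a UMI (unique molecular identifier) marks 1 captured transcript. A cell belonged to the gate with at least 3 UMIs of Vcan and Chil3 together, at least 5 of Lyz2 and at least 1 of Csf1r. It also had no Cd3e, Cd79a or Flt3, at most 2 Arg1, at most 9 Cxcl9 plus Cxcl10, and at most 9 C1qa, C1qb and C1qc together. Low limits on Cd209a, Xcr1 with Clec9a, and Mki67 with Top2a kept dendritic and dividing cells out. These 18 gate genes chose the cells, so their values are descriptions and carry no test. The gate held 2032 of 22490 cells kept from 23731 deposited barcodes, and 2032 of 7035 Lyz2/Csf1r myeloid cells.

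The study asked how induced loss of Trex1, a nuclease that degrades DNA in the cytosol, alters the leukocytes of a melanoma. In the Trex1 iKO group both Trex1 alleles were floxed (Trex1 fl/fl), whereas the control group had 1 floxed and 1 wild-type allele (Trex1 fl/wt), so the control is not wild type. All mice were males of 8 to 12 weeks that carried R26CreERT2 on 1 allele, and all received tamoxifen, 1 mg on 3 days from day 5. CreERT2 at this locus is expressed broadly, so deletion was not restricted to monocytes or to leukocytes. B16-F10 melanoma cells, 1000 in Matrigel, were placed in the skin of both legs, and live CD45-positive cells were sorted on day 14 for 3' droplet sequencing. Each genotype was 1 pool of 4 hashtagged samples, called iKO samples 1 to 4 and control samples 1 to 4. Pool and genotype coincide and cannot be told apart. Nothing in the labels says that each hashtagged sample is 1 mouse, so the p-values measure the spread between these samples.

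Classical monocytes leave the bone marrow and are drawn to tissues through the chemokine receptor Ccr2, carry Ly6C on their surface, and enter tumours, where they can become macrophages. Versican (Vcan) is a matrix proteoglycan and Chil3 a secreted chitinase-like lectin, and mouse classical monocytes make both. Type I interferon acts on these cells through Ifnar1 and Ifnar2 and the kinases Jak1 and Tyk2. Stat2 and Irf9, in a complex, then bind interferon-stimulated response elements in promoters, and Irf7 feeds back on interferon production.

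The iKO samples held 302, 386, 180 and 399 monocytes, and the control samples 210, 74, 180 and 301. Median depth per monocyte was 13334 to 15788 UMIs in iKO and 12740 to 14032.5 in control samples, and monocyte UMIs per sample summed to between 1143188 and 6588479. All monocytes had their own sample's hashtag as the highest, and the matrices of a pool shared no barcode. Since the counts were deposited as 1 matrix per hashtag, neither is an independent check of sample identity. The pools shared 45 barcode sequences, of which 1 was a monocyte in both. Trex1 had 0 UMIs in the monocytes of every sample and 2 in all other Lyz2/Csf1r myeloid cells together, so its RNA gives no check of the deletion.

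The label was checked against markers that the gate did not use. Ccr2 was at 998 to 1301 CPM (UMIs of the gene per 1000000 UMIs of the class) in the monocytes and at 633 to 928 CPM in the other Lyz2/Csf1r myeloid cells. Ly6c2 was at 273 to 3353 CPM in the monocytes and 154 to 2623 CPM in the other myeloid cells. Within each of the 8 samples both markers were higher in the monocytes than in these other cells as a whole. Ly6c2 did not set the monocytes apart from every class, since Cxcl9/10 macrophages held 2964 CPM beside 3221 CPM in iKO sample 1 and 246 beside 273 CPM in control sample 2. T cells of control sample 2 held 348 CPM, above its monocytes. Both gate genes were seen in the same cell for 60.6% to 65.2% of iKO monocytes and 67.8% to 71.9% of control monocytes. In control sample 1 the median Chil3 count was 28 UMIs per monocyte, against medians of 3 to 5 in the other samples.

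With the cells of all iKO and control samples summed together, levels of other monocyte genes changed gradually across the Vcan and Chil3 limit. Monocytes with 3 or 4 UMIs made up 14.4% to 21.8% in iKO and 5.24% to 14.9% in control samples, so the mix of groups varied along the limit. The part of this mix in the trend was not tested. The 204 cells just outside, with 2 UMIs, had 1709 CPM Ly6c2, 924 CPM Ccr2 and 252 CPM F13a1. The 304 cells just inside, with 3 or 4 UMIs, had 1802, 1018 and 292 CPM of the same genes. The 1202 cells with 10 or more UMIs had 1880 CPM Ly6c2, 1164 CPM Ccr2 and 568 CPM F13a1. Ace, a gene of non-classical monocytes, went the other way, with 154 CPM just outside, 126 CPM just inside and 59.7 CPM in the cells of 10 or more.

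Beyond the gate genes, the monocytes shared a set of monocyte transcripts in every sample, given as levels without a test. Hp (haptoglobin) averaged 722 CPM over the 8 samples in the monocytes and 228 CPM in the other myeloid cells. Mgst1, a glutathione transferase of membranes, averaged 161 against 53.0 CPM, and Ifitm6 365 against 130 CPM. Gsr (glutathione reductase), Mcemp1, Gm9733, Smpdl3a and Plac8 were also among the 15 genes with the largest ratio. At the other end, the macrophage genes Mmp12 (19.9 against 132 CPM), Ms4a7 (71.0 against 312 CPM) and Cd63 (72.2 against 242 CPM) were lower in the monocytes of every sample.

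Markers of other cell types differed in level between samples. The 10 T cell markers summed to 89.3 to 117 CPM in iKO and 61.8 to 90.4 CPM in control monocytes. The 7 NK cell markers summed to 50.7 to 136 CPM in iKO and 27.7 to 57.5 CPM in control. The 5 mast cell and basophil markers were at 0 in every sample, and Tyr was at 0 among the 7 melanoma markers, which summed to 11.8 to 36.6 CPM. The 8 B cell markers summed to 26.2 to 81.6 CPM, and the 10 dendritic cell markers to 30.3 to 57.1 CPM. The 16 neutrophil markers summed to 802 to 4475 CPM in iKO and 1119 to 2412 CPM in control, and iKO sample 3 held the highest value. S100a8 in that sample was at 1777 CPM, against 212 to 761 CPM in the others. The 10 markers of tissue or tumour macrophages, 3 of them gate genes, summed to 560 to 1323 CPM in iKO and 1990 to 2578 CPM in control. Apoe alone gave 254 to 761 CPM of these sums in iKO and 1584 to 1861 CPM in control. The part of these other cell types in the differences between groups was not tested.

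The share of monocytes among the sorted leukocytes did not differ between groups beyond the spread of the samples. Their share of kept cells was 7.81%, 6.54%, 13.8% and 16.2% in iKO samples 1 to 4. The 4 controls, in order, had 10.6%, 4.32%, 6.52% and 12.02%. The means were 11.1% ± 4.67 (SD, n = 4) and 8.37% ± 3.57 (SD, n = 4), and the groups overlapped (exact permutation test, two-sided, p = 0.371, adjusted p = 0.486 over 2 shares). Of Lyz2/Csf1r myeloid cells they made up 28.9% ± 7.56 in iKO and 33.0% ± 7.95 in control samples (SD, n = 4, exact permutation p = 0.486, adjusted p = 0.486). The smallest p-value this exact test can give with 4 samples against 4 is 0.0286.

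The gate's limit on Cxcl9 and Cxcl10, which are interferon-induced chemokines, removed unequal parts of the groups. Of myeloid cells with at least 3 UMIs of Vcan and Chil3, 51.2%, 40.9%, 14.3% and 14.8% exceeded that limit in iKO samples 1 to 4. The control values were 18.1%, 8.16%, 5.02% and 10.2%. Without the limit the monocytes among all kept cells made up 15.3% ± 3.33 (iKO) and 9.28% ± 4.32 (control) (SD, n = 4, exact permutation p = 0.0857). Their share of myeloid cells was then 40.9% ± 1.59 in iKO and 36.1% ± 9.31 in control, so the direction of that difference turned. The Arg1 limit was unequal too. Among the same Vcan/Chil3 cells, Arg1 exceeded its limit in 36 of 730, 72 of 822, 38 of 286 and 64 of 622 (iKO). The controls, in sample order, had 70 of 365, 49 of 147, 41 of 279 and 254 of 716. This part was larger in every control than in every iKO sample, and the same held for the C1q limit. The bearing of the Arg1 and C1q limits on the shares and gene differences was not tested. Neighbouring gates are shown beside the monocytes in the plot of shares.

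**Figure D1:**
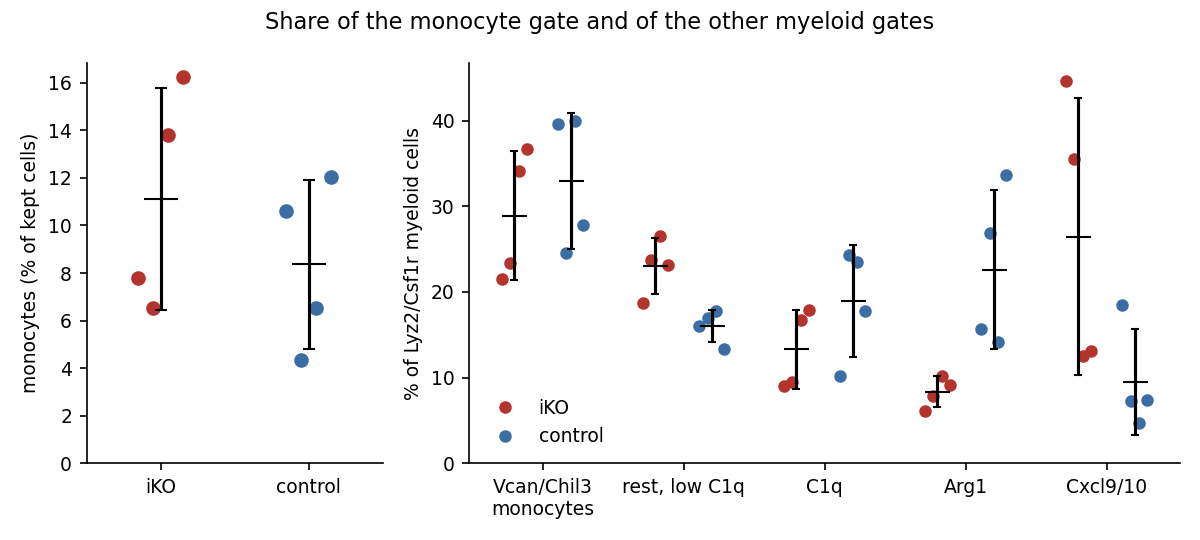
Share of Vcan/Chil3 monocytes among kept cells (left, percent) and of the 5 myeloid gates among Lyz2/Csf1r myeloid cells (right, percent) in each hashtagged sample. Points are samples, bars are mean ± SD of 4 samples. The monocyte shares of the groups overlap, while Cxcl9/10 macrophages reach 44.7% and 35.5% in iKO samples 1 and 2.

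In iKO monocytes every tested gene of a list of type I interferon-stimulated genes was higher. UMIs were summed over the monocytes of each sample and tested with edgeR's quasi-likelihood test, and a gene was called at a Benjamini-Hochberg adjusted p under 0.05. Of 9339 tested genes outside the gate, 810 were called (8.67%), with 456 higher in iKO (4.88%) and 354 lower (3.79%). The count was 409 without iKO sample 1, 417 without iKO sample 2, 530 without control sample 2 and 472 without control sample 4. The 8 values did not overlap between groups for 1527 genes (16.4%). All 60 tested genes of a 62-gene list of type I interferon-stimulated genes rose, with a median log2 fold change of 1.73 and a range from 0.55 to 4.52, against a median of -0.0044 over all genes. Rigi was not matched under that symbol and Ifi44l was too low to test. The list was chosen with earlier results of these data known. Ifi27 and Ifitm1, which are also named for interferon, are outside it and fell. Leaving out each sample in turn, between 55 and 60 of the list stayed called.

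The 12 genes with the largest increase, among called genes with no overlap between groups and at least 20 CPM in 1 group, were led by antiviral effectors. Ifi44, an interferon-induced cytoplasmic protein, was at 108, 125, 50.3 and 41.4 CPM in iKO samples 1 to 4 and at 5.48, 2.69, 6.75 and 0.241 CPM in the controls, a log2 fold change of 4.52 ± 0.58 (SE, adjusted p = 0.000773). Irf7 (ENSMUSG00000025498), the interferon regulatory factor, was at 1005, 1139, 571 and 575 CPM against 143, 55.6, 114 and 73.8 CPM, a log2 fold change of 3.07 ± 0.31 (SE, adjusted p = 0.000209). In both genes the lowest iKO sample stood above the highest control sample. Slfn4, a Schlafen protein of myeloid cells, was at 347, 441, 201 and 197 CPM in iKO and 48.3, 28.7, 40.5 and 24.8 CPM in control samples, a log2 fold change of 3.05 ± 0.30 (adjusted p = 0.000207). Oasl1, of the oligoadenylate synthetase-like proteins, averaged 85.8 ± 41.8 CPM against 7.99 ± 4.18 CPM (SD, n = 4, log2 fold change 3.37 ± 0.42). The RNA-binding Ifit genes, which restrict viral translation, included Ifit1bl1 (3.34), Ifit2 (3.32), Ifit3 (3.16) and Ifit1 (2.91, all log2 fold changes). Rsad2, the antiviral enzyme viperin, was at 279, 329, 85.2 and 94.3 CPM against 48.3, 13.5, 32.9 and 17.6 CPM (log2 fold change 2.76 ± 0.50, adjusted p = 0.00596). Ifi208, of the PYHIN family, completed the genes that stayed called without each sample in turn, with a log2 fold change of 2.99 ± 0.53. Ifit3b and the GTPase Iigp1, the remaining 2 of the 12, lost their calls when some single samples were left out. Iigp1 reached an adjusted p of 0.0683 without control sample 4, and Ifit3b of 0.0871 at most over 5 such samples (iKO samples 1 and 2, control samples 1, 2 and 4). In T cells all 12 were also higher in iKO without overlap. Iigp1 means there were 89.2 against 32.7 CPM, above the 46.1 and 5.75 CPM of monocytes. For Irf7 they were 93.1 against 21.2 CPM, below the 822 and 96.6 CPM of monocytes. The part of RNA from outside the cell in these increases was not tested.

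The 12 genes with the largest decrease under the same rule were of mixed function. Cxcl3 and Apoe, at the low end of this group, are described with their lists. Trf (transferrin), the iron carrier, was at 50.4, 45.9, 47.7 and 43.0 CPM in iKO samples and 106, 116, 142 and 95.5 CPM in controls, a log2 fold change of -1.29 ± 0.13 (SE, adjusted p = 0.000209). Ddit4, a stress-induced inhibitor of mTORC1, was at 10.8, 15.3, 5.55 and 15.1 CPM against 49.7, 51.2, 34.6 and 57.7 CPM (-1.99 ± 0.25, adjusted p = 0.000761). In both genes every control sample stood above every iKO sample. The growth factor receptor Igf1r was at 6.33 ± 1.09 CPM in iKO and at 21.0 ± 6.79 CPM in controls (SD, n = 4, log2 fold change -1.67 ± 0.23). The metal-binding Mt1 (-1.31), Rgcc (-1.36), the sialic acid receptor Cd33 (-1.93) and Gm15417 (-1.58) were called without each sample in turn. So were Ifi27 (-1.35) and Ifitm1 (-1.43), which are named for induction by interferon and fell here. Fkbp5, a chaperone induced by glucocorticoids, was called at -2.19 but lost the call without any of the iKO samples and without control sample 2 or control sample 3. Among the 12, T cell levels were also lower in iKO without overlap for Cd33, Fkbp5, Apoe and Cxcl3, and overlapped for the rest. For Cd33 the T cell means were 0.916 against 3.32 CPM. The part of RNA from outside the cell in these differences was not tested.

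The iKO samples were not alike in strength. In all 60 tested genes of the list, iKO samples 1 and 2 were both above iKO samples 3 and 4, and in 60 the latter were still above every control sample. Isg15, a ubiquitin-like modifier, was at 1914 and 2290 CPM in iKO samples 1 and 2, at 851 and 779 CPM in iKO samples 3 and 4, and at 170 to 290 CPM in the controls. The same split of the iKO samples was seen in the share of cells over the Cxcl9 and Cxcl10 limit given above. Whether the gate's limit bears on the size of the response was tested by removing it, and all 60 genes were again called, with a median log2 fold change of 1.79.

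**Figure D2:**
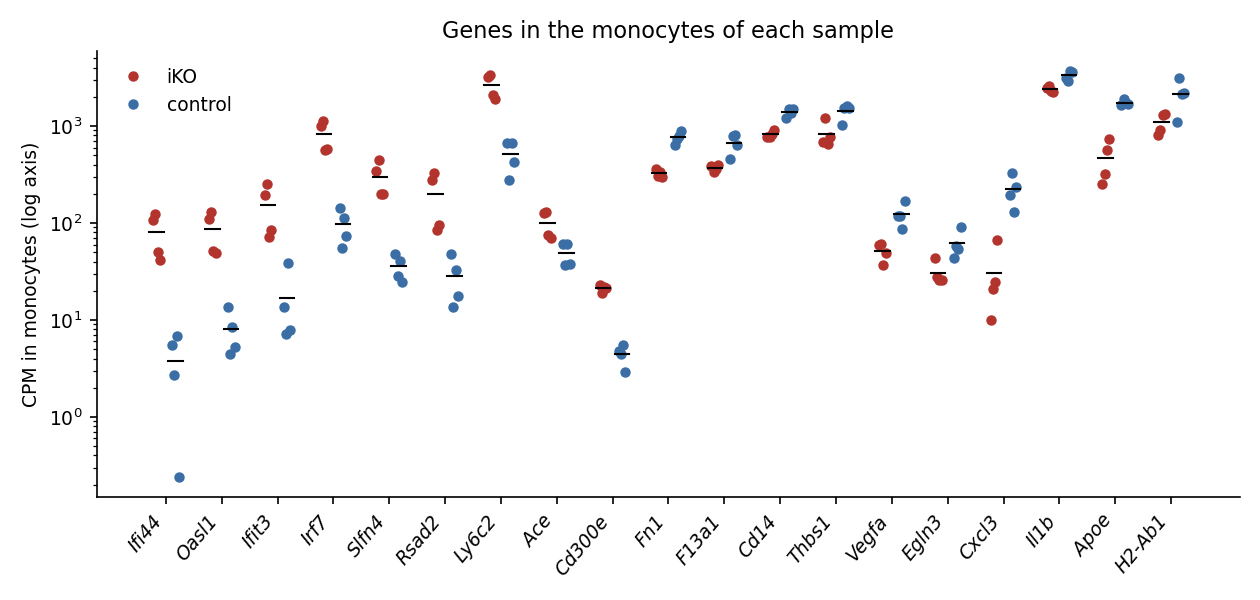
Level of named genes in the monocytes of each sample, in CPM on a log axis, with the mean of 4 samples as a bar. Irf7 lies between 571 and 1139 CPM in iKO and between 55.6 and 143 CPM in control samples, while Apoe and Fn1 lie lower in iKO.

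The list was also counted in single cells. At an equal depth of 2000 UMIs per cell, the median monocyte held 70, 73, 50 and 50 UMIs of the list in iKO samples 1 to 4, whereas the controls held 25, 17, 20 and 19.5 UMIs. The 10th percentile ran from 21 to 43 UMIs in iKO and the 90th percentile from 31 to 41.1 in the controls. The distributions overlapped, and 52.4% of control monocytes, pooled over samples, held at least 21 UMIs, the lowest of the iKO 10th percentiles. Irf7 was detected in 59.4% to 84.4% of iKO and 12.5% to 23.4% of control monocytes at this depth. In T cells of the same samples, chosen by at least 2 Cd3e UMIs and no Csf1r, the shares were 18.1% to 18.9% and 4.12% to 8.39%. Without thinning, Irf7 was detected in 97.5% to 99.2% of iKO and 44.2% to 65.7% of control monocytes. At most 3 monocytes of a sample were too shallow to thin.

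**Figure D3:**
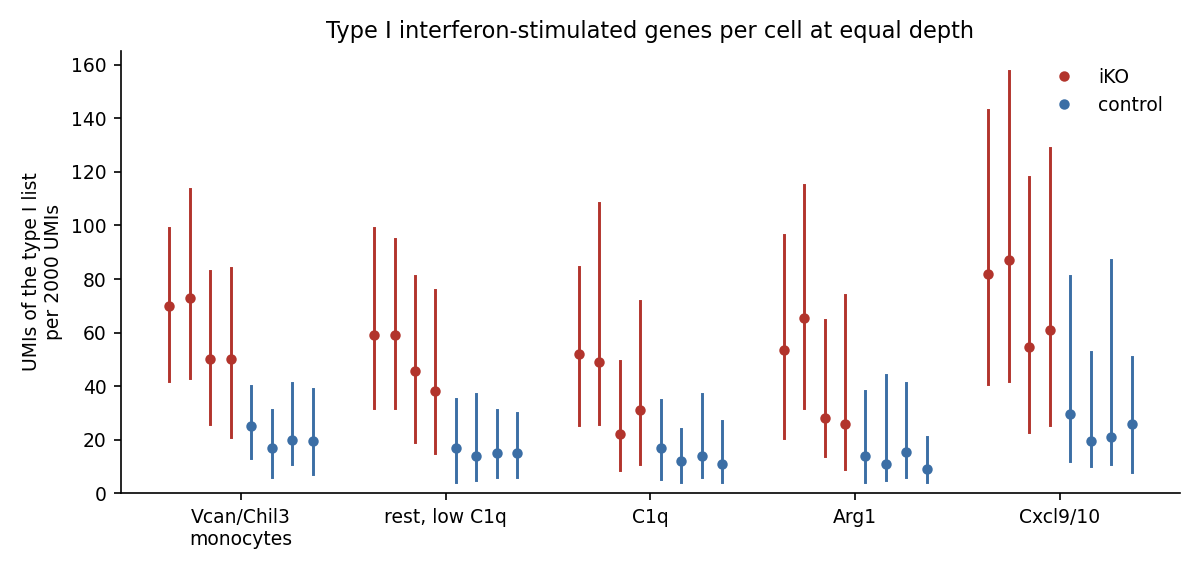
UMIs of the type I interferon list per cell at 2000 UMIs, by myeloid gate and sample. Points are medians and lines run from the 10th to the 90th percentile of cells. Monocyte medians are 50 to 73 in iKO and 17 to 25 in control samples.

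Promoter windows of the interferon genes were read because their members rose together. RefSeq windows of the GRCm38.p6 build, from 250 bases before to 50 bases after a start, were searched on both strands for GAAA, any 2 bases and GAAA again, a short form of the interferon-stimulated response element. A match was found in 29 of 60 windows of the list (48.3%, 48 of 60 genes matched to the table) and in 335 of 9610 windows of all genes tested (3.49%). Of all 32851 windows in the table, 3.44% held it. Windows of the 12 most lowered genes held it in 0 of 13. Ifit3 (chr19:34583279-34583578, plus strand) had matches beginning 156 and 122 bases before the start, Rsad2 (chr12:26456403-26456702, minus strand) had 1 at 120 bases, and the Irf7 window (chr7:141266375-141266674, minus strand) had none. The 3 are printed because their genes rose and they show windows with 2, 1 and 0 matches, which capitals mark.
Ifit3: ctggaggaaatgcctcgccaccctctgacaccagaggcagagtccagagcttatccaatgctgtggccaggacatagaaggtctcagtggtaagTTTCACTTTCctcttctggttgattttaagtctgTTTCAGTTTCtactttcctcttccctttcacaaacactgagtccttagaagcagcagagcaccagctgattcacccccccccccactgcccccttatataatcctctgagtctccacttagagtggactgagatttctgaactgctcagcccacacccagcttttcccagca
Rsad2: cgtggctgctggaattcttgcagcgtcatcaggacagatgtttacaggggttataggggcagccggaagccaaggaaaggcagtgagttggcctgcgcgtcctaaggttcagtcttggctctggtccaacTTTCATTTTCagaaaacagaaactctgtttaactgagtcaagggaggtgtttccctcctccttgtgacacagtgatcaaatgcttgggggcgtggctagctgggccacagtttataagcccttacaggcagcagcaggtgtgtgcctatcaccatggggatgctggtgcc
Irf7: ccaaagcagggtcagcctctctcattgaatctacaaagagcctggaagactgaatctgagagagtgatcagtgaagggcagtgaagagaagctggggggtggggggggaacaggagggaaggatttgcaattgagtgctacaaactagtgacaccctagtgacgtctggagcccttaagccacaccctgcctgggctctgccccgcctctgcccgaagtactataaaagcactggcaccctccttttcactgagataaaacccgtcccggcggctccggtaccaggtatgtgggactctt

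Genes that carry the interferon signal rose in part. Of 14 tested interferon receptor and JAK-STAT genes, 4 rose and none fell, with a median log2 fold change of 0.39. Stat2 was at 156, 180, 78.7 and 71.7 CPM in iKO and 38.4, 27.8, 33.8 and 26.3 CPM in control samples, with no overlap (log2 fold change 1.94 ± 0.30, adjusted p = 0.00243). Usp18, which removes Isg15 and dampens the receptor, rose by 2.48 ± 0.31 on the log2 scale. The receptor chain Ifnar1 was at 92.6 ± 3.87 CPM in iKO and at 99.3 ± 12.3 CPM in controls (SD, n = 4, edgeR adjusted p = 0.632). Irf9 (0.57 ± 0.15) was called, but its adjusted p reached 0.111 at most when iKO sample 1 or 2 or control sample 2, 3 or 4 was left out.

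Sensors of nucleic acid in the cytosol followed, with 10 of 20 tested genes higher and none lower, and a median log2 fold change of 0.79. The RNA sensors Ifih1 (1.95 ± 0.26) and Ddx58 (1.79 ± 0.23), the Z-nucleic acid sensor Zbp1 (1.74 ± 0.27) and the RNA helicase Dhx58 (1.35 ± 0.16, all log2 fold change ± SE) were called without each sample in turn. Ifih1 was at 169, 169, 89.8 and 93.3 CPM in iKO samples and 42.5, 26.9, 38.4 and 25.8 CPM in controls, with no overlap. The DNA sensor Cgas was at 33.7, 46.1, 34.0 and 30.0 CPM against 16.8, 17.1, 29.5 and 14.7 CPM (adjusted p = 0.0301), and Sting1, the adaptor it signals through, averaged 62.8 ± 12.7 against 53.6 ± 11.3 CPM (SD, n = 4, edgeR adjusted p = 0.46).

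Of 20 class I genes 15 were called higher and none lower, with a median log2 fold change of 0.81. The light chain B2m was at 4108, 4124, 3111 and 3168 CPM in iKO and 2686, 2024, 2213 and 2163 CPM in control samples (0.68 ± 0.12, adjusted p = 0.00433). The class Ib genes H2-T24 (1.94 ± 0.30), H2-Q7 (1.47 ± 0.23), H2-Q4 (1.35 ± 0.20) and H2-T22 (1.27 ± 0.25) rose, although near-identical copies in this family can split reads. The list's count fell to 8 without iKO sample 1, iKO sample 2 or control sample 4, and to 10 without control sample 3. Of 9 class II genes 4 were called lower and none higher, with a median of -0.82. H2-Ab1, a class II beta chain, was at 817, 912, 1300 and 1324 CPM in iKO samples and 1098, 3169, 2131 and 2187 CPM in controls (log2 fold change -0.98 ± 0.26, adjusted p = 0.0418). Control sample 1 lay among the iKO samples, so the groups overlapped. No class II gene stayed called without iKO sample 1, iKO sample 2, control sample 3 or control sample 4, and 1 did without control sample 2.

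Of 20 tested interferon gamma-associated GTPases and regulators, 6 rose and none fell, with a median log2 fold change of 1.08. Irgm1, an immunity-related GTPase, was at 203, 200, 89.8 and 86.5 CPM in iKO and 46.3, 25.1, 38.8 and 40.3 CPM in control samples (1.90 ± 0.31, adjusted p = 0.00302). Gbp7, a guanylate-binding protein, rose by 1.12 ± 0.20 on the log2 scale. Irf1, a transcription factor induced by both interferon types, was at 115 ± 64.1 CPM against 54.3 ± 31.3 CPM (SD, n = 4, edgeR adjusted p = 0.189). The count was 3 without iKO sample 1, iKO sample 2, control sample 3 or control sample 4, and 11 without iKO sample 4.

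**Figure D4:**
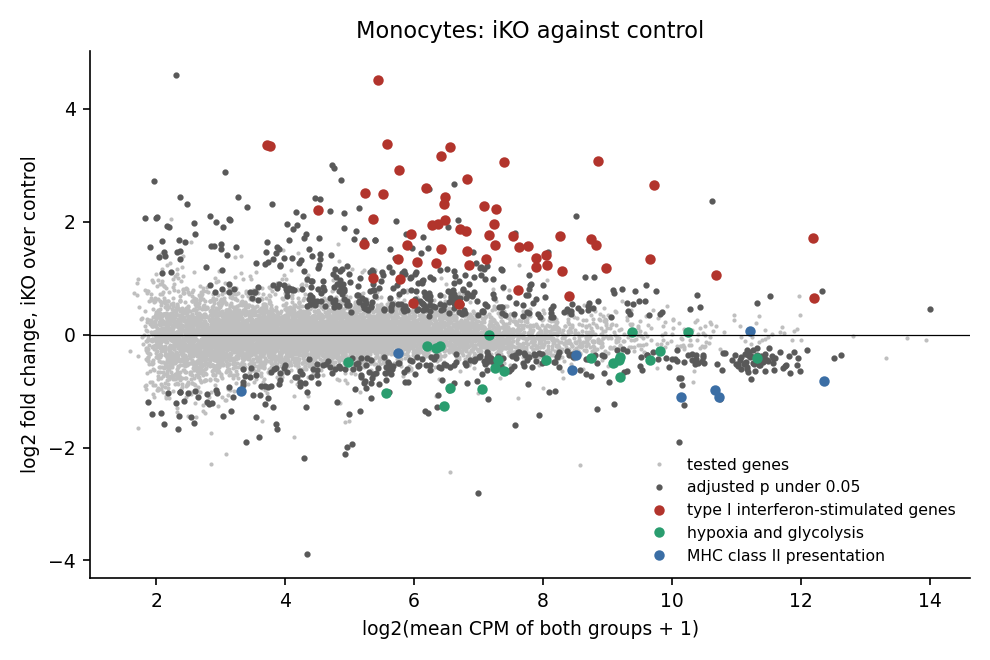
Log2 fold change of each tested gene in monocytes, iKO over control, against log2 of the mean CPM of both groups plus 1. Dark points passed an adjusted p under 0.05. All 60 tested genes of the type I interferon list lie above 0, whereas 2 of 23 hypoxia and glycolysis genes do.

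Genes that identify classical monocytes moved in both directions. Of 20 tested, 4 rose and 4 fell, and the median log2 fold change was -0.06. Ly6c2 (ENSMUSG00000022584) was at 3178, 3384, 2084 and 1914 CPM in iKO samples and 667, 280, 673 and 429 CPM in controls, a log2 fold change of 2.36 ± 0.27 (adjusted p = 0.000506). The lowest iKO sample was thus above the highest control. Its near copy Ly6c1 can share reads with it. T cells also held more Ly6c2, at 607 to 1097 CPM in iKO and 254 to 441 CPM in controls. Ms4a4c, a membrane protein that is also in the type I list, rose by 1.34 ± 0.18 on the log2 scale, and Fcgr1 is described with the Fc receptors. Ccr2 was at 1129, 1080, 1125 and 1068 CPM in iKO and 1093, 1150, 1306 and 1044 CPM in control samples, a log2 fold change of -0.06 ± 0.08 (adjusted p = 0.699). Hp, Plac8, Mgst1 and Ifitm6, which mark the gate, did not pass the test.

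The members of this list that fell are known for adhesion, clotting and bacterial sensing. Fn1 (fibronectin) was at 363, 306, 336 and 297 CPM in iKO and 635, 731, 797 and 894 CPM in control samples (log2 fold change -1.23 ± 0.11, adjusted p = 0.000173). F13a1, the clotting factor XIII subunit, was at 389, 339, 362 and 400 CPM against 461, 785, 805 and 632 CPM (-0.85 ± 0.15, adjusted p = 0.006). Cd14, the lipopolysaccharide co-receptor, was at 778, 764, 834 and 900 CPM against 1211, 1499, 1370 and 1493 CPM (-0.77 ± 0.09, adjusted p = 0.000449). None of these 3 overlapped between groups. The fourth, the matrix glycoprotein Thbs1 (-0.77 ± 0.20, adjusted p = 0.0318), overlapped and was called without iKO sample 2 or control sample 1, but not without any of the other 6 samples. T cells, which should lack Fn1, held 2.31 to 4.38 CPM of it in iKO and 15.7 to 25.6 CPM in control samples, and Cd14 there was at 9.12 to 15.3 CPM against 28.9 to 44.7 CPM. F13a1 in T cells was at 1.86 to 3.31 against 7.47 to 13.2 CPM, and Thbs1 at 6.54 to 9.48 against 19.0 to 38.8 CPM. At 2000 UMIs per cell, Fn1 was found in 30.1% to 33.3% of iKO and 43.1% to 59.4% of control monocytes, and in 0.377% to 0.756% and 3.75% to 4.94% of T cells. The part of free RNA in these differences was not tested.

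Genes of non-classical monocytes, the Ly6C-low patrolling cells, rose where they changed. Of 15 tested, 6 rose and none fell, with a median log2 fold change of 0.67. Cd300e, an activating receptor, was at 22.9, 18.8, 21.9 and 21.4 CPM in iKO samples and 4.80, 4.49, 5.49 and 2.89 CPM in controls (2.31 ± 0.20, adjusted p = 0.000155). Eno3, a muscle-type enolase, was at 75.7, 59.3, 45.1 and 47.3 CPM against 17.1, 9.87, 10.1 and 10.1 CPM (2.24 ± 0.23, adjusted p = 0.000209). Treml4, a receptor of the TREM family, was at 51.3, 56.9, 48.3 and 52.9 CPM against 38.4, 23.3, 30.8 and 19.5 CPM (0.90 ± 0.18, adjusted p = 0.0111). For each of the 3 the groups did not overlap. Nr4a1, the nuclear receptor these cells need, was at 501 ± 14.6 CPM in iKO and at 508 ± 93.4 CPM in controls (SD, n = 4, edgeR adjusted p = 0.946), and Cx3cr1 was at 115 ± 9.89 against 101 ± 45.3 CPM (adjusted p = 0.703). Ace, Spn and Pou2f2 were called too. Spn had an adjusted p of 0.0556 without control sample 4, Ace reached 0.0855 at most when iKO sample 1, iKO sample 2, control sample 2 or control sample 4 was left out, and Pou2f2 0.0725 at most when iKO sample 1, iKO sample 2 or control sample 4 was left out. With cells thinned to 2000 UMIs before the gate, which then holds fewer cells, 9 of these genes were tested, 1 was called and their median was 0.03. The share of monocytes with only 3 or 4 UMIs of Vcan and Chil3 was 14.4% to 21.8% in iKO and 5.24% to 14.9% in control samples. Ace was higher in such cells when the samples of both groups were summed together. With a limit of at least 6 UMIs the list had 6 calls and a median of 0.53. The count of the list was 3 without control sample 4, 4 without iKO sample 1 or iKO sample 2, and 10 without control sample 1.

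Of 24 genes that accompany the change from monocyte to macrophage, 2 rose and 2 fell, with a median log2 fold change of -0.23. With cells thinned to 2000 UMIs before the gate, 18 were tested, 1 was higher and 6 were lower, with a median of -0.55. Apoe (ENSMUSG00000002985), a lipid carrier of macrophages, was at 251, 317, 567 and 736 CPM in iKO and 1634, 1910, 1736 and 1690 CPM in control samples (-1.90 ± 0.28, adjusted p = 0.00164). Cd72, a lectin-like receptor, was at 40.5, 40.7, 15.02 and 23.4 CPM against 11.7, 6.28, 4.22 and 5.55 CPM (2.10 ± 0.38, adjusted p = 0.00579). The groups did not overlap in either gene. Adgre1, Trem2, Mrc1 and Spp1 did not pass the test. Apoe in T cells was at 14.9 to 31.1 CPM in iKO and 85.1 to 122 CPM in controls. It was found at 2000 UMIs in 23.1% to 41.1% of iKO and 62.5% to 70.8% of control monocytes, and in 2.33% to 5.54% and 18.8% to 23.3% of T cells. The second gene that rose, the lysosomal protease Ctsb, was at 1688, 1798, 1412 and 1563 CPM against 1187, 1213, 869 and 1323 CPM (0.49 ± 0.12, adjusted p = 0.0295), and it was not called without iKO sample 1, iKO sample 2 or control sample 2. The count was 1 higher and 1 lower when any 1 of these 3 samples was left out. The fourth call, Cd63, was at 40.0 ± 10.0 CPM in iKO and at 107 ± 55.3 CPM in controls (SD, n = 4), with overlapping groups, and reached an adjusted p of 0.0834 at most when iKO sample 1, 2 or 3 was left out, or control sample 2 or 4.

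Hypoxia and glycolysis genes fell where they changed, with 9 of 23 lower, none higher and a median log2 fold change of -0.44. Vegfa, the vascular growth factor induced by low oxygen, was at 58.8, 60.1, 37.2 and 48.6 CPM in iKO and 118, 118, 87.3 and 170 CPM in control samples (-1.27 ± 0.20, adjusted p = 0.00295). Bnip3, a mitophagy receptor, was at 111, 89.3, 77.1 and 79.6 CPM against 131, 183, 140 and 242 CPM (-0.97 ± 0.19, adjusted p = 0.0105). Ankrd37, another target of hypoxia-inducible factor, fell by 0.94 ± 0.17 on the log2 scale. The groups did not overlap in any of the 3. The enzymes Ldha, Gapdh and Pgam1 were called at smaller changes of -0.44, -0.41 and -0.39. The count was 3 without iKO sample 2, iKO sample 4 or control sample 4, 4 without control sample 2, 5 without iKO sample 1 or iKO sample 3, and 12 without control sample 1 or control sample 3. Vegfa in T cells was at 2.64 to 4.62 CPM in iKO and 8.80 to 10.8 CPM in controls. The T cell levels of the other genes measured there overlapped between groups, with means of 37.1 against 32.9 CPM for Bnip3, 32.6 against 31.2 CPM for Ankrd37 and 896 against 771 CPM for Ldha.

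Inflammatory mediators were lower for some neutrophil-attracting chemokines and Il1b. Of 15 chemokines outside the gate 2 rose and 3 fell, with a median log2 fold change of -0.31. Cxcl3, a ligand of Cxcr2, was at 9.88, 21.0, 24.5 and 66.5 CPM in iKO samples and 193, 329, 129 and 236 CPM in controls (-2.80 ± 0.47, adjusted p = 0.00387). Ccl4, which attracts monocytes and T cells, was at 932, 841, 867 and 817 CPM against 447, 563, 350 and 655 CPM (0.78 ± 0.16, adjusted p = 0.0111). Neither gene overlapped between groups. Ccl2, the ligand of Ccr2, was at 1819 ± 200 CPM in iKO and at 1761 ± 943 CPM in controls (SD, n = 4, edgeR adjusted p = 0.96). Of 16 cytokines 3 rose and 1 fell, with a median of 0.39, and the one that fell was Il1b, at 2465, 2608, 2320 and 2253 CPM against 3155, 2933, 3695 and 3606 CPM (-0.47 ± 0.08, adjusted p = 0.00489). Il1b in T cells was at 49.1 to 104 CPM in iKO and 133 to 180 CPM in control samples. For Cxcl3 the T cell values were 1.65 to 3.33 CPM and 10.5 to 27.0 CPM, and for Cxcl2 26.6 to 39.6 CPM and 155 to 201 CPM. Those of Ccl4 and Ccl5 overlapped between groups but were higher than in monocytes on average. T cell means of Ccl5 were 4039 CPM in iKO and 3247 CPM in control samples, beside 116 and 51.2 CPM in monocytes. For Ccl4 the T cell means were 1466 and 742 CPM, beside 864.5 and 504 CPM in monocytes. The part of free RNA or of T cell RNA in these differences was not tested. The other chemokine calls were Ccl5 (1.15), Cxcl2 (-1.14) and Ppbp (-3.88, with control sample 1 among the iKO samples), and the count was 1 higher and 1 lower without iKO sample 1, iKO sample 2, control sample 2 or control sample 4. Among cytokines, Tnfsf10 (1.90), Il18 (0.74) and Ebi3 (0.60) were called higher, and none of them without control sample 4. Of 10 chemokine receptors, 0 were called by edgeR's quasi-likelihood test or by DESeq2, and 4 had an unadjusted p under 0.05.

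The remaining lists held few calls. Of 5 Fc gamma receptor genes 1 rose and 2 fell, with a median log2 fold change of 0.06. The high-affinity receptor Fcgr1 was at 756, 868, 562 and 577 CPM in iKO and 403, 355, 407 and 430 CPM in control samples (0.79 ± 0.14, adjusted p = 0.00457). The inhibitory receptor Fcgr2b was at 276, 267, 379 and 358 CPM against 411, 649, 500 and 565 CPM (-0.73 ± 0.15), and its adjusted p was 0.0504 without iKO sample 1. Fcgr3 was called at -0.41, and of the fits that left out a sample it was called only without control sample 1. Of 15 costimulation and checkpoint ligands 2 rose and none fell (median 0.19), namely Cd40 (1.16) and Sirpa (0.31), and neither stayed called without iKO sample 1, iKO sample 2, control sample 3 or control sample 4. Of 20 immediate-early and dissociation stress genes 4 fell and none rose (median -0.32), with Fos at 2155 ± 400 CPM in iKO and at 3114 ± 126 CPM in controls (SD, n = 4, -0.53 ± 0.11, adjusted p = 0.0132). Their count was 1 without iKO sample 2 or control sample 4, and 2 without control sample 2. Of 19 matrix and alternative activation genes outside the gate 2 fell, Fn1 and Thbs1, and none rose (median -0.23). The gate genes themselves are given as levels only. Vcan was at 520 ± 27.1 CPM in iKO and 678 ± 237 CPM in control monocytes, and Chil3 at 494 ± 57.5 and 1102 ± 872 CPM (SD, n = 4), with 2377 CPM in control sample 1.

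Whether the genotype effect in monocytes differed from that in macrophages was tested as an interaction, with the sample as a block because each sample gives both classes. Against C1q macrophages, the myeloid cells over the C1q limit, 6 of 9689 genes were called (0.0619%). Axl, a receptor of apoptotic cells, rose by 1.84 on the log2 scale in monocytes and by 0.52 in C1q macrophages, a difference of 1.25 ± 0.17 (SE, adjusted p = 0.0351). Its levels were 61.2, 70.6, 41.6 and 35.4 CPM in iKO and 14.9, 12.6, 16.1 and 14.4 CPM in control monocytes, beside 84.2 to 131 CPM and 62.3 to 88.9 CPM in the macrophages. Monocytes thus held less Axl than C1q macrophages in every sample. Ear2, a ribonuclease of the eosinophil family with near copies, had effects of 0.55 and -1.23 (difference 1.82 ± 0.28). The phospholipase Ddhd1 (0.40 and -0.93, difference 1.31 ± 0.19) and Hp (0.24 and -0.77, difference 1.09 ± 0.17) also differed upward. The sheddase Adam8 (-0.55 and 0.40, difference -0.96 ± 0.16) and the platelet chemokine Ppbp (-3.88 and -0.83, difference -3.06 ± 0.50) differed downward. All 6 had an adjusted p of 0.0351. Without iKO sample 2, control sample 3 or control sample 4 no gene was called, and without the other samples 2 to 6 genes were. These were not always the genes named here. Without control sample 2, 6 genes were called and 4 of them were among those named. Without control sample 1, 3 were called and 2 of them were among those named.

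Against Arg1 macrophages 2 of 9177 genes were called (0.0218%), and both are macrophage or inflammatory products that fell more in monocytes. Apoe changed by -1.90 in monocytes and by -0.63 in Arg1 macrophages (difference -1.32 ± 0.20, adjusted p = 0.0471). Cxcl3 changed by -2.80 and -0.70 (difference -2.29 ± 0.35, adjusted p = 0.0471). No gene was called in this comparison when iKO sample 1, 2 or 3 was left out, or control sample 2 or 3, and 1 was called without control sample 1 or control sample 4. Without control sample 1 that gene was neither Apoe nor Cxcl3, and without control sample 4 Apoe was called and Cxcl3 was not.

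No gene of the type I interferon list was called in either interaction. The list's median effect was 1.73 in monocytes and 1.36 in C1q macrophages, and the difference exceeded 0 in 51 of 60 genes, with a median of 0.25 against -0.01 over all genes. Against Arg1 macrophages the list's median effects were 1.73 and 1.63, with a median difference of 0.02. Hypoxia and glycolysis genes had a median effect of -0.44 in monocytes, -0.02 in C1q and -0.03 in Arg1 macrophages, and no gene of the list was called in either interaction. Non-classical monocyte genes had median effects of 0.67, 0.28 and 0.02 in the same order, with Ear2 as the single call. At simulated 4-fold differences these tests recovered 91.0% and 89.5% of the changed genes. The simulated samples of a class shared their means apart from the changed genes. Differences as small as the list medians above were not simulated, so these rates do not say whether such differences would be called.

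**Figure D5:**
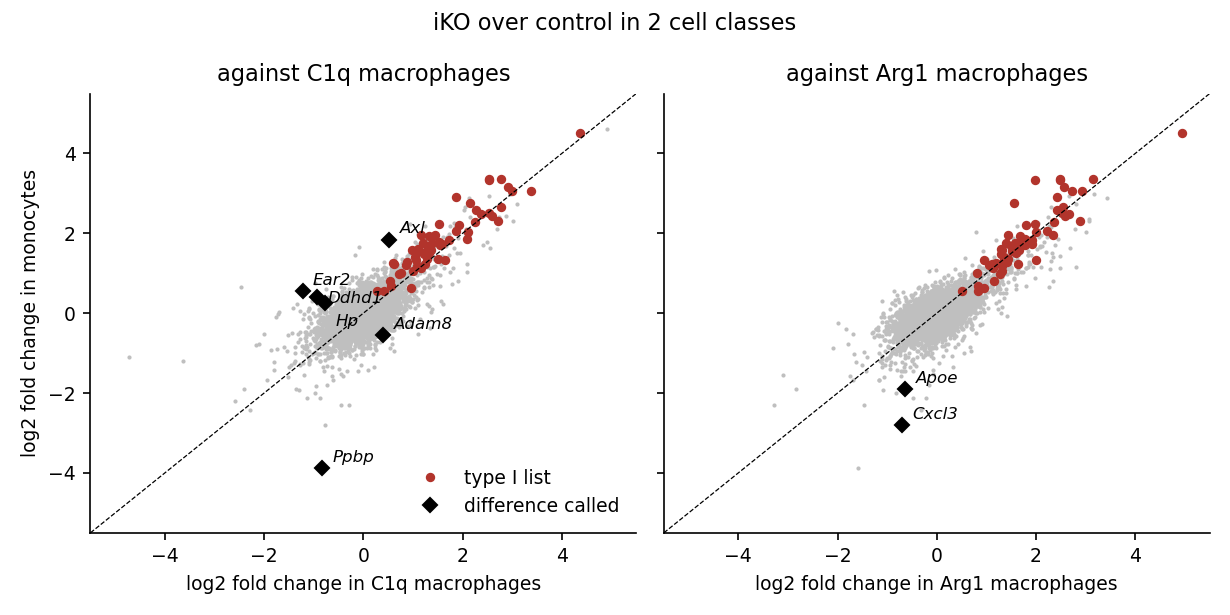
Log2 fold change, iKO over control, in monocytes (vertical) against C1q macrophages (left) and Arg1 macrophages (right) of the same samples. Red points are the type I interferon list, black diamonds the 6 and 2 genes whose effects differed between classes, and the dashed line marks equal effects.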

How the data were processed

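Leukocytes sorted from B16-F10 tumours were profiled by 3' droplet sequencing in 2 pools of 4 hashtagged samples. The authors deposited UMI counts per gene and cell, made with Cell Ranger 7.1.0 per the file headers and aligned to GRCm39 per the submitters' processing notes, with 1 matrix per hashtag. Cells with at least 300 genes and at most 10% mitochondrial UMIs were kept. The monocyte gate, gene lists and members were chosen with earlier results of these data known. Doublets were kept in the main results, and 19 monocytes had a Scrublet score over 0.25 (scanpy 1.11.5).

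Counts were summed per sample and class and tested with edgeR 4.0.16 (TMM, filterByExpr, quasi-likelihood test, Benjamini-Hochberg adjustment over all genes, R 4.3.3), also adjusting the p-values of the interaction fits, which held the sample as a block. CPM of tested genes are TMM-scaled, while CPM of markers, other cell types, the gate limit and T cells are per 1000000 summed UMIs. Shares were compared by exact permutation over 70 regroupings. Named genes were the 12 largest and 12 smallest log2 fold changes among called genes with no overlap and at least 20 CPM in 1 group, up to 6 called genes per list and direction, and members the background describes. Alternatives were DESeq2 1.42.0, RLE scaling, no count filter, a replicate block, doublet removal, thinning to 2000 UMIs, other gate limits and leaving out each sample. On simulated counts with 200 genes changed 4-fold, the monocyte test recovered 97.5% of them among 9351 genes. Some members of the lists are counted but not reported by name here.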

Additional observations from a re-analysis of the deposited data

Results flagged for a closer look

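Among 190 groups of 4 samples checked for a value far from the others, 7 held one, and chance gives about 1 in 20. Control sample 3 stood high for Ifit3b, at 7.60 CPM against 0 to 1.03 CPM in the other controls, and for Ifi208, at 14.3 CPM against 2.69 to 3.14 CPM. Control sample 1 stood apart for Thbs1, at 1017 CPM against 1526 to 1612 CPM, and for Eno3, at 17.1 CPM against 9.87 to 10.1 CPM. In iKO sample 1, Egln3, an oxygen sensor, was at 43.6 CPM against 25.8 to 27.5 CPM, and the heat shock gene Hspa1b at 185 CPM against 54.6 to 75.7 CPM. Gm15417 was low in iKO sample 2, at 5.58 CPM against 6.86 to 6.99 CPM.

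The genotype effect differed between monocytes and macrophages for 8 genes by the interaction test of edgeR. Against C1q macrophages the log2 differences were 1.25 for Axl, 1.31 for Ddhd1, 1.82 for Ear2, 1.09 for Hp, -0.96 for Adam8 and -3.06 for Ppbp. Against Arg1 macrophages they were -1.32 for Apoe and -2.29 for Cxcl3.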

How the results depend on the processing

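Of 88 named genes, 49 kept their call and direction under every alternative run that tested them, and 53 kept it without each sample in turn. The run with thinned cells tested 56 of the 88, of which 11 lost their call, and says nothing about the rest. The 810 calls in monocytes became 311 with cells thinned to 2000 UMIs before the gate, where fewer genes were tested, and 409 to 953 without each sample in turn. Other settings gave 626 to 1006. The main fit did not treat same-numbered samples as pairs. The 4 same-number correlations were 0.13, -0.17, -0.03 and -0.0020. So few values show no pairing but cannot exclude one. A replicate block gave 626 calls, with 375 higher and 251 lower. Hypoxia and glycolysis genes then had 4 calls, against 14 by DESeq2.

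The share of kept cells differed by 2.73 percentage points, by 1.02 to 4.25 without each sample in turn, and by -0.77 with thinned cells. The share of myeloid cells differed by -4.06 points, by -6.85 to -1.59 without each sample in turn, and by 4.83 without the limit on Cxcl9 and Cxcl10. Its largest shift came with thinned cells, at -12.3 points (13.5% in iKO, 25.8% in control, exact permutation p = 0.0571).

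The 6 interaction calls against C1q macrophages became 18 by DESeq2, 221 without a filter on low counts, and 0 with thinned cells by edgeR, where 166 genes had an unadjusted p under 0.05. Without each sample in turn 0 to 6 genes were called, and at most 4 of the original 6 were among them. The 2 calls against Arg1 macrophages became 11 by DESeq2 and 160 without a filter on low counts. By edgeR they became 0 without likely doublets, with 796 genes at an unadjusted p under 0.05, and 0 without the chemokine limit, with 752 such genes. Without each sample in turn they numbered 0 to 2. Thinning was not run against Arg1 macrophages because too few cells remained. The cause of these changes was not tested. Genotype and pool cannot be told apart.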

Other observations

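Ribosomal protein genes, looked at after their values were seen, were lower in iKO monocytes. Of 82 tested, 79 were called and 78 of these were lower, with a median log2 fold change of -0.44, where 3.79% of all tested genes were called lower. They made up 14.1%, 14.4%, 15.6% and 15.4% of monocyte UMIs in iKO samples 1 to 4. The controls had 19.1%, 20.4%, 19.9% and 19.0%, with no overlap. In C1q macrophages the shares were 15.6% ± 1.69 and 19.7% ± 1.13, and in cells outside the myeloid gate 23.2% ± 1.28 and 24.9% ± 1.51 (SD, n = 4). Near-identical copies of these genes make single values uncertain, and genotype and pool cannot be told apart.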
